A study of Homo sapiens with 12 samples.

Results

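The lamins and the proteins that anchor them to the inner face of the nuclear envelope were examined in cells labelled Jurkat, a human T cell leukemia line, with and without overexpression of the phosphatase PTPN21 and with and without vincristine (VCR), a drug that blocks microtubule assembly. The genes were the 10 rows of the expression table named LMNA, LMNB1, LMNB2, LBR, EMD, TMPO, LEMD3, BANF1, SUN1 and SUN2, out of 60671 rows. They were chosen by name, with earlier results of these data known. The table held 12 RNA-seq libraries in 4 groups of 3. NC cells, wild type in the labels and carriers of the GFP vector in the study's methods, were treated for 48 h with DMSO (NC+DMSO) or VCR (NC+VCR). Cells that overexpressed PTPN21 with a FLAG tag from the viral SFFV promoter were treated in the same way (PTPN21+DMSO and PTPN21+VCR). No source used here gives the VCR dose of these libraries or says whether the 3 libraries of a group came from separate cultures, so p-values measure the spread between libraries, which may be technical.

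Nuclear lamins are intermediate filament proteins that form a meshwork under the inner nuclear membrane. LMNA encodes the A-type lamins, which are usually low in lymphoid cells, while the B-type lamins encoded by LMNB1 and LMNB2 keep a lipid anchor and are made in nearly all cells. The lamin B receptor (LBR) spans the membrane, binds B-type lamins and heterochromatin and also has a sterol reductase domain. Emerin (EMD), the lamina-associated polypeptides of TMPO (LAP2) and LEMD3 (MAN1) share the LEM domain, which binds the small DNA-bridging protein encoded by BANF1. SUN1 and SUN2 cross the inner membrane and join KASH proteins of the outer membrane in the LINC complex, which links the nucleus to the cytoskeleton. In mitosis the lamina is taken apart by phosphorylation and is rebuilt around the chromosomes afterwards.

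Several facts of the whole data set bear on these values. PTPN21 itself was at 0.0212 to 0.569 FPKM (fragment counts divided by gene length and by the size of the library) in the NC libraries and at 4.34 to 10.5 FPKM in the PTPN21 libraries. Of 10 genes that mark T cells, 6 stayed below 1 FPKM in every library. LCK, CD5 and CD28 were listed at 0 in all 12, whereas CD3D ranged from 61.8 to 140 FPKM. The epithelial keratins KRT8, KRT18 and KRT19 together with EPCAM had lowest values of 58.3 FPKM or more. The epithelial marker CDH1, by contrast, reached at most 1.83 FPKM and was listed at 0 in 3 of the 12 libraries. The 5 epithelial markers summed to between 605 and 853 FPKM in the DMSO libraries and to between 1678 and 2218 FPKM in the VCR libraries, and the 10 T cell markers, nearly all of it CD3D, to between 64.0 and 97.9 FPKM in NC+DMSO and between 109 and 145 FPKM elsewhere. The 6 myeloid markers summed to 47.9 to 68.0 FPKM and the 8 B cell markers to 0.279 to 1.84 FPKM. Among the myeloid markers CD33 ranged from 20.5 to 44.4 FPKM, LYZ from 9.08 to 17.0 and SPI1 from 6.56 to 30.0. CD14, CSF1R and MPO, by contrast, reached at most 0.0797, 0.388 and 0.0830 FPKM. The part of these genes in the results was not tested. The defining markers of the labelled cell type were thus largely absent, and the cells are called by their label only. The values carry no depth, but the spacing of low values put the PTPN21 libraries at 1.25 to 1.47 times the first NC+DMSO library and the other NC libraries at 0.886 to 1.09 times, so that depth and construct cannot be told apart. In RNA of whole cultures, fewer cells that express a gene and less RNA per cell cannot be told apart either.

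The promoter windows of the 3 genes that passed the test in some comparison are shown as a description. Whether their sequence bears on their expression was not tested. Each is a RefSeq window (GRCh38.p14) that spans a transcription start and runs 5′ to 3′ along the gene's own strand. Capitals mark 4 motifs, searched on both strands. They are the CCAAT box, the cell cycle homology region TTTGAA, the E2F factor motif TTCCCGC and the GC box, which reads GGGCGG. Read on the other strand the GC box can overlap the E2F motif. The TMPO window is chr12:98515340-98515639 on the plus strand, the LMNB1 window is chr5:126776886-126777185 on the plus strand and the LBR window is chr1:225428772-225429071 on the minus strand.
TMPO: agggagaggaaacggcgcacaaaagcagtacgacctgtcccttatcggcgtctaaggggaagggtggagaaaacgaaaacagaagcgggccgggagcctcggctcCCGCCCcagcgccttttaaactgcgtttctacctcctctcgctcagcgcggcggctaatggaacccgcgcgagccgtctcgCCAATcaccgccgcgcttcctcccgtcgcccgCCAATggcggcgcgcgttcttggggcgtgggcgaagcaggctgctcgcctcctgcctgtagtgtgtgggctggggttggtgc
LMNB1: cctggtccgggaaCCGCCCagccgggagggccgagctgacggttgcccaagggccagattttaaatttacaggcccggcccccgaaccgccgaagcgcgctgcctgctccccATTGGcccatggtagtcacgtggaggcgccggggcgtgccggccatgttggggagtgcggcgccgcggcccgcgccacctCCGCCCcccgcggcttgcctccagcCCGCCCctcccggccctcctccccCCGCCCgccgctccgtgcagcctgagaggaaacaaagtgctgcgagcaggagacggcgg
LBR: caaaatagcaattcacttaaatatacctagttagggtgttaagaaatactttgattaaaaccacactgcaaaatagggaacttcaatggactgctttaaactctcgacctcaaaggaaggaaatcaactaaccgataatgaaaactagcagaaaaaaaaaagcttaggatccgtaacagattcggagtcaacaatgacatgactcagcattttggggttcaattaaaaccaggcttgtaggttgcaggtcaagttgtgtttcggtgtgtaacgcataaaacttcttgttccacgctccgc
The TMPO window held CCAAT beginning at -64 and at -32 from the start, both on the gene's strand, and a GC box at -145 on the other strand. The LMNB1 window held the CCAAT box on the other strand at -138 and 4 copies of the GC box. None of the 4 motifs was in the LBR window. Of the 35116 promoter windows in the RefSeq table, 34.6% held the CCAAT box, 15.2% the cell cycle homology region, 6.55% the E2F motif and 45.0% the GC box. The table held 9 of the 10 genes, all but SUN1, and where a gene had more than 1 window (TMPO and LMNB1 had 2, LMNA and SUN2 had 3) the window nearest to its principal GENCODE start was used. For LMNA even that window lay 7991 bases from the start. Of the 9 genes 4 had the CCAAT box, 1 the cell cycle homology region, 2 the E2F motif and 7, LMNA included, the GC box. These are matches of letters and say nothing of binding.

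All 10 genes were expressed. On the FPKM scale, which is per length and allows levels of different genes to be set side by side, LMNB1 had the highest mean in NC+DMSO at 84.6 ± 21.2 FPKM (SD, n = 3) and SUN2 the lowest at 4.51 ± 1.86 FPKM (SD, n = 3). In that group BANF1 came next after LMNB1, and TMPO, LBR, LMNA, LMNB2, SUN1, LEMD3 and EMD followed. Only LMNA and LMNB2, of all neighbours in that order, had libraries that did not overlap. In PTPN21+VCR the order was BANF1, LBR, LMNB1, LMNA, TMPO, LMNB2, SUN1, EMD, SUN2 and LEMD3, and the neighbours without overlap were LMNA and TMPO, TMPO and LMNB2, and SUN1 and EMD. LMNA, at the 83.8th to 86.9th percentile of the tested genes by group, was not low in these cells.

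**Figure D1:**
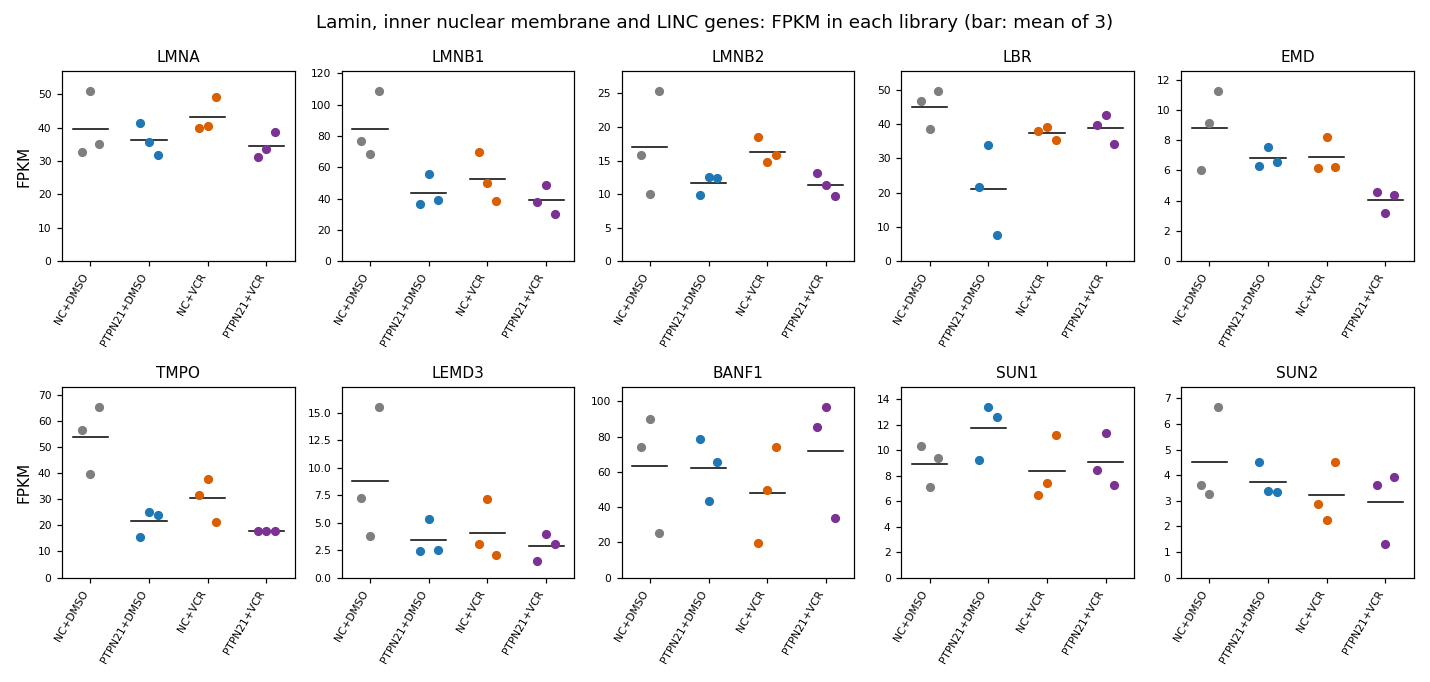
FPKM (linear axis from 0) of each of the 10 genes in the 12 libraries, 1 panel a gene and 1 point a library, with a bar at the mean of the 3 libraries of a group. TMPO and LMNB1 stand highest in NC+DMSO, and the LBR point at 7.56 FPKM is the third PTPN21+DMSO library.

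The genes differed in how well their replicates agreed. The replicate standard deviation on the log2(FPKM + 1) scale was 0.22 for LMNA, 0.26 for EMD and 0.30 for SUN1, against a median of 0.30 over the 11591 tested genes. It was 0.53 for LBR, 0.69 for LEMD3 and 0.82 for BANF1, which put these genes at the 86.8th, 94.4th and 96.8th percentile of all tested genes. The third NC+DMSO library held the highest value of all 12 for 7 of the 10 genes, namely LMNB1, LMNB2, LBR, EMD, TMPO, LEMD3 and SUN2, and it was the highest library for 27.1% of the tested genes. Every comparison against NC+DMSO rests in part on that library, and several values are given without it below. The second NC+VCR library was the lowest of all 12 for 20.3% of the tested genes. In NC+VCR between 16232 and 18105 genes were above 0 in a library, against 18617 to 20089 in NC+DMSO. The part of this in the changes with VCR was not tested.

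Among the lamins, LMNA was the steadiest. It was measured at 32.6, 50.9 and 35.0 FPKM in NC+DMSO and 39.9, 40.4 and 49.2 in NC+VCR, against 41.5, 35.7 and 31.7 in PTPN21+DMSO and 31.1, 33.5 and 38.6 in PTPN21+VCR. The groups overlapped except that every PTPN21+VCR library was below every NC+VCR library. LMNB1 was at 77.1, 68.2 and 108.6 FPKM in NC+DMSO and 69.5, 50.2 and 38.6 in NC+VCR, against 36.4, 55.5 and 38.9 in PTPN21+DMSO and 37.9, 48.6 and 30.2 in PTPN21+VCR. The 3 NC+DMSO libraries lay above all others but the first NC+VCR library, which lay between them. LMNB2 was at 15.8, 9.98 and 25.3 FPKM in NC+DMSO and 18.4, 14.8 and 15.8 in NC+VCR, against 9.86, 12.6 and 12.4 in PTPN21+DMSO and 13.2, 11.3 and 9.76 in PTPN21+VCR. Its spread within NC+DMSO covered the range of every other group but for PTPN21+DMSO replicate 1 and PTPN21+VCR replicate 3, which were just below it.

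The makeup of the lamin transcripts followed from these levels. The 3 lamin genes summed to 141 ± 24.1 FPKM (SD, n = 3) in NC+DMSO and 112 ± 13.5 in NC+VCR, against 91.5 ± 10.9 in PTPN21+DMSO and 84.7 ± 7.69 in PTPN21+VCR. LMNA made up 28.7% ± 9.64 (SD, n = 3) of this sum in NC+DMSO and 39.0% ± 8.14 in NC+VCR, against 40.0% ± 6.60 in PTPN21+DMSO and 40.9% ± 7.16 in PTPN21+VCR. NC+DMSO replicate 2, at 39.4%, was within the range of the other groups, while replicates 1 and 3, at 26.0% and 20.7%, were below all of them. The ratio of LMNB1 to LMNA was 2.27 ± 0.884 in NC+DMSO and between 1.15 and 1.26 on average in the other groups. These shares are given as a description without a test.

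**Figure D2:**
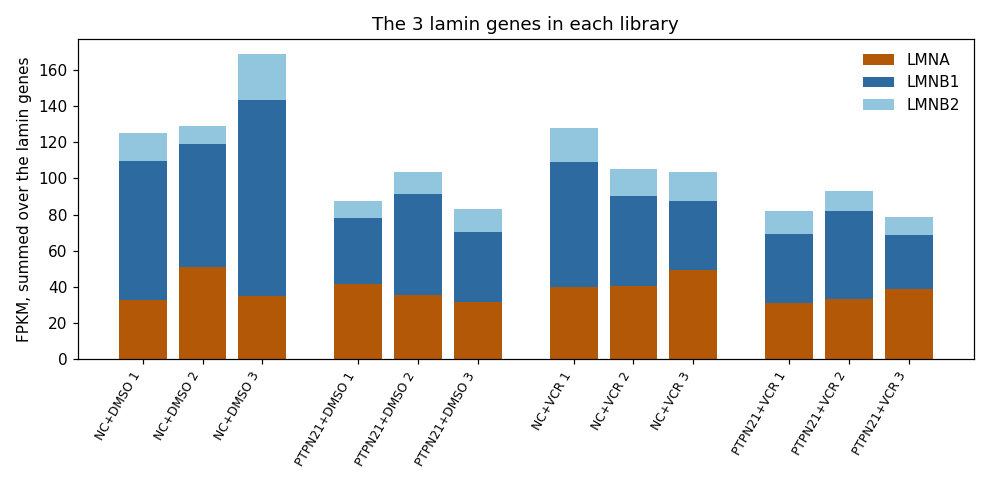
Stacked bars of the FPKM of LMNA, LMNB1 and LMNB2 in each library (linear axis from 0, 3 libraries a group). The LMNB1 part is largest in the third NC+DMSO library at 108.6 FPKM, whereas the LMNA part stays between 31.1 and 50.9 FPKM in all 12.

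LBR was measured at 46.8, 38.7 and 49.6 FPKM in NC+DMSO and 37.8, 39.2 and 35.3 in NC+VCR, against 21.7, 33.8 and 7.56 in PTPN21+DMSO and 39.8, 42.7 and 34.2 in PTPN21+VCR. The 3 PTPN21+DMSO libraries were the lowest of the 12, and the third stood far below the other two. Among the LEM domain genes, TMPO was at 56.6, 39.5 and 65.1 FPKM in NC+DMSO and 31.6, 37.8 and 21.4 in NC+VCR, against 15.6, 25.2 and 23.9 in PTPN21+DMSO and 17.7, 18.0 and 17.7 in PTPN21+VCR. NC+DMSO was above all other groups without overlap, and PTPN21+VCR was below NC+VCR without overlap. EMD was at 6.05, 9.14 and 11.2 FPKM in NC+DMSO and 6.13, 8.20 and 6.26 in NC+VCR, against 6.29, 7.56 and 6.58 in PTPN21+DMSO and 4.60, 3.18 and 4.35 in PTPN21+VCR, so that the PTPN21+VCR libraries were the lowest of all. LEMD3 ranged over the 12 libraries from 1.49 to 15.5 FPKM with a median of 3.42, and its highest value was in the third NC+DMSO library.

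BANF1 had the largest replicate standard deviation of the 10 genes on the log2(FPKM + 1) scale. It was at 74.4, 90.1 and 25.5 FPKM in NC+DMSO and 19.7, 49.6 and 74.2 in NC+VCR, against 78.9, 43.2 and 65.4 in PTPN21+DMSO and 85.3, 96.6 and 33.9 in PTPN21+VCR. Libraries of the same group differed up to 3.77-fold, and all 4 groups overlapped. The LINC genes had lower levels. SUN1 ranged from 6.49 to 13.3 FPKM over the 12 libraries and SUN2 from 1.33 to 6.65 FPKM, and neither separated any pair of groups compared. SUN1 shares 1842 exon bases with its neighbour GET4 on the same strand, and SUN2 shares exon bases with 5 other genes, so that reads of these genes may not be fully separated.

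Each gene was compared between groups with limma on log2(FPKM + 1), on which changes of low genes look smaller than they are, in 1 model of the 4 groups over the 11591 genes whose FPKM averaged 1 or more. The threshold was 0.05 after Benjamini-Hochberg adjustment across this whole set, and all 10 genes were tested. The comparisons of VCR with DMSO in NC cells and of PTPN21 with NC in DMSO share the NC+DMSO libraries. The median log2 fold change of all tested genes was -0.36 for VCR in NC cells, -0.17 for VCR in PTPN21 cells, -0.14 for PTPN21 in DMSO and 0.03 for PTPN21 in VCR, and under median ratio scaling it was between -0.03 and 0.03 in these comparisons. That scaling also turned the balance of calls over all genes, from 917 higher and 3275 lower to 1732 and 1331 for VCR in NC cells, from 1069 and 2239 to 1539 and 1468 for VCR in PTPN21 cells, from 307 and 428 to 421 and 133 for PTPN21 in DMSO, and from 116 and 95 to 57 and 73 for PTPN21 in VCR. Directions below therefore stand beside the median of all genes.

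**Figure D3:**
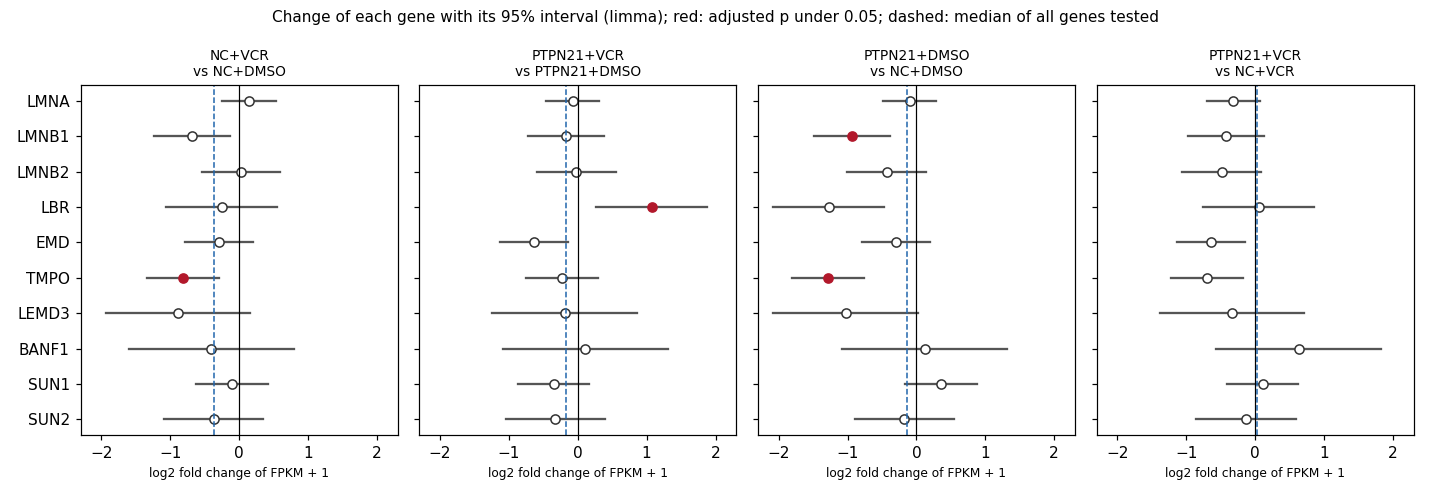
Log2 fold change (FPKM + 1) of each of the 10 genes in 4 comparisons of groups of 3 libraries, with its 95% interval from limma. Red points passed an adjusted p of 0.05 (LBR, LMNB1 and, in both comparisons against NC+DMSO, TMPO), the solid line is 0 and the dashed line is the median of all tested genes.

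With PTPN21 overexpression in DMSO, TMPO and LMNB1 were lower than in NC+DMSO, and no other of the 10 genes passed the test. TMPO fell by 1.28 on the log2 scale (standard error 0.241, limma adjusted p = 0.0162), a 2.43-fold lower value of FPKM + 1, and lay 1.14 below the median change of all genes. LMNB1 fell by 0.94 (standard error 0.253, limma adjusted p = 0.0486). Thus 2 of 10 genes passed, beside 6.34% of all tested genes. LBR, at -1.27, did not pass (standard error 0.368, limma adjusted p = 0.0585), although its libraries did not overlap between the groups. It passed in 3 of 22 other settings and was at -0.70 without the third PTPN21+DMSO library. The libraries of TMPO and LMNB1 did not overlap between the groups either, and such separation was seen for 33.4% of all tested genes. LEMD3 was at -1.03 (limma adjusted p = 0.202) and LMNB2 at -0.43 (0.325). LEMD3 and LMNB2, like LMNA (-0.10), EMD (-0.30), BANF1 (0.12), SUN1 (0.36) and SUN2 (-0.17), had 95% intervals that included 0. The median over the 10 genes was -0.36.

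The TMPO value lay between -1.48 and -0.94 over 22 other settings and passed in 17. It missed the threshold without NC+DMSO replicate 1 or 3 or PTPN21+DMSO replicate 1 (limma adjusted p = 0.0555, 0.0711 and 0.0816). The LMNB1 call passed in 7 of 22 settings, and it was lost without NC+DMSO replicate 1 or 3 (limma adjusted p = 0.0996 and 0.187), PTPN21+DMSO replicate 1 or 3 (0.186 and 0.132), NC+VCR replicate 2 (0.0554) or any PTPN21+VCR library (0.0537 to 0.0687), and with the replicate number as a block (0.0794). Without the third NC+DMSO library the log2 fold changes were -1.13 for TMPO, -0.74 for LMNB1, -1.20 for LBR, -0.56 for LEMD3, -0.11 for LMNB2 and -0.12 for EMD. BANF1 went from 0.12 to -0.43 and SUN2 from -0.17 to 0.09, so that both took the other sign. The antisense gene TMPO-AS1 shares 713 exon bases with TMPO. It was between 0.0555 and 1.56 FPKM in all libraries, with means of 0.994 FPKM in NC+DMSO and 0.169 in NC+VCR, against 0.591 in PTPN21+DMSO and 0.207 in PTPN21+VCR, and its part in the TMPO values was not tested.

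VCR in NC cells was followed by a lower TMPO, the only one of the 10 genes past the threshold. TMPO fell by 0.81 on the log2 scale in NC+VCR against NC+DMSO (standard error 0.241, limma adjusted p = 0.0209), and its libraries did not overlap. This was 0.45 below the median of all tested genes, and it compares with 36.2% of all genes past the threshold and 44.1% without overlap, so that 1 of 10 is below the background. LMNB1 was at -0.68 (standard error 0.253, limma adjusted p = 0.0522). LEMD3 was at -0.89 (limma adjusted p = 0.166), with a 95% interval that included 0. The lamin genes LMNA at 0.14 and LMNB2 at 0.03, like SUN1 at -0.10, SUN2 at -0.37, LBR at -0.25, EMD at -0.29 and BANF1 at -0.40, had 95% intervals that included 0. The median over the 10 genes was -0.33.

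The TMPO call passed in 14 of 22 other settings. It was lost without NC+DMSO replicate 1 or 3 (limma adjusted p = 0.0610 and 0.0808), without the third NC+VCR library (0.0769) and with median ratio scaling, where the value was -0.42 (0.195). Transcripts of LMNA and LMNB2 are rich in G and C (61.5% and 61.4%), and with the trends of all genes on length and GC content removed, a setting added after seeing the data, LMNA rose by 0.73 (limma adjusted p = 0.00924) and LMNB2 by 0.65 (0.0467), while TMPO was at -0.54 (0.0613). Without the third NC+DMSO library the log2 fold changes were -0.66 for TMPO, -0.49 for LMNB1, -0.42 for LEMD3, 0.35 for LMNB2 and -0.95 for BANF1.

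In PTPN21 cells VCR was followed by a higher LBR. LBR rose by 1.07 on the log2 scale in PTPN21+VCR against PTPN21+DMSO (standard error 0.368, limma adjusted p = 0.0464), and every VCR library was above every DMSO library. EMD was at -0.64 (standard error 0.226, limma adjusted p = 0.0521), also without overlap, and it passed in 7 of 22 other settings. The background was 28.5% of all tested genes past the threshold and 50.4% without overlap, against 1 and 2 of the 10 genes. TMPO was at -0.23, LMNB1 at -0.16, LMNA at -0.07, LMNB2 at -0.02, LEMD3 at -0.19, BANF1 at 0.11, SUN1 at -0.35 and SUN2 at -0.33, all with 95% intervals that included 0. The median over the 10 genes was -0.18.

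The size of the LBR rise depended most on the third PTPN21+DMSO library, at 7.56 FPKM. Without it the rise was 0.50 on the log2 scale (limma adjusted p = 0.0944). The call passed in 5 of 22 other settings, and of the 12 fits that each left out a library it passed only in the one without the second PTPN21+DMSO library, with limma adjusted p between 0.0546 and 0.124 in the other 11. Among the settings that ended it were a pseudocount of 0.1 (0.0525), no filter on low values (0.142) and the fit to these groups alone (0.104).

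**Figure D4:**
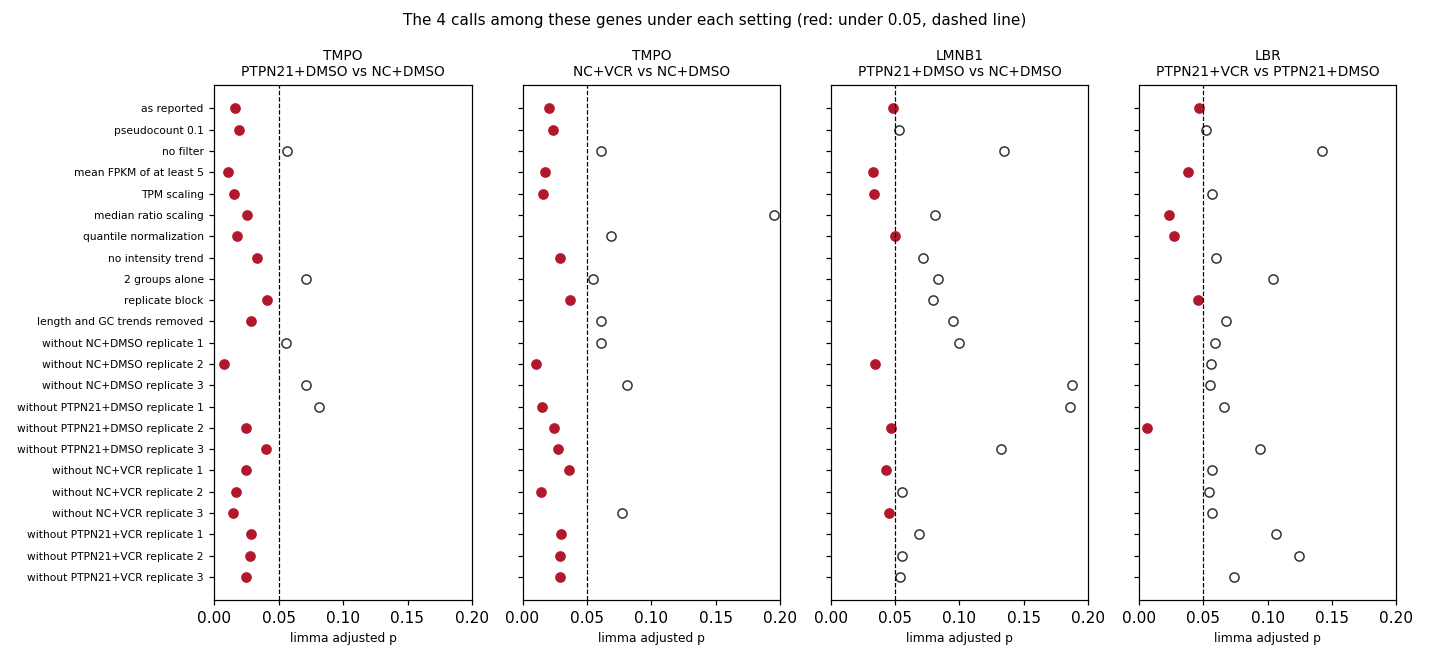
Adjusted p from limma for the 4 calls among the 10 genes (1 panel each, linear axis from 0 to 0.2) under the reported setting and 22 others, red where under 0.05 and the dashed line at 0.05. TMPO in PTPN21+DMSO passed in 17 of the 22 others, TMPO in NC+VCR in 14, LMNB1 in 7 and LBR in 5.

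The direct comparison of PTPN21+VCR with NC+VCR, which asks how PTPN21 overexpression alters the treated cells, gave no call among the 10 genes with limma, beside 1.82% of all tested genes. At an unadjusted p under 0.05 there were 2, beside 1980 of the 11591 tested genes. These were TMPO at -0.70 (limma adjusted p = 0.155) and EMD at -0.64 (0.165). In 4 of the 10 genes, LMNA, LMNB2, EMD and TMPO, every PTPN21+VCR library was below every NC+VCR library, a separation found in 22.5% of all tested genes. LMNA was at -0.32 (limma adjusted p = 0.395) and LMNB2 at -0.48 (0.381). LMNB2 was among the apoptosis genes that the study picked from these same libraries, so its direction here is not independent of that choice. LMNB1 was at -0.42, LBR at 0.05, LEMD3 at -0.33, BANF1 at 0.63, SUN1 at 0.11 and SUN2 at -0.13. Single libraries set several of these values, since BANF1 was at 0.11 without the first NC+VCR library and at 1.10 without the third PTPN21+VCR library, and LMNB1 was at -0.20 without the first NC+VCR library. The median over the 10 genes was -0.32.

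Whether VCR acted differently with PTPN21 was tested as an interaction. None of the 10 genes passed with limma, beside 0.129% of all tested genes. At an unadjusted p under 0.05 there were 1624 of the 11591 tested genes and 1 of the 10. This was LBR, whose change with VCR was larger by 1.33 in PTPN21 cells than in NC cells (95% interval 0.19 to 2.46, limma adjusted p = 0.290), and by 0.75 without the third PTPN21+DMSO library. For TMPO the difference was 0.58 (95% interval -0.16 to 1.32, adjusted p = 0.454) and for LMNB1 0.52 (-0.26 to 1.30, 0.521). The other differences were -0.22 for LMNA, -0.05 for LMNB2, -0.35 for EMD, 0.70 for LEMD3, 0.51 for BANF1, -0.25 for SUN1 and 0.04 for SUN2.

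Other genes of the envelope were set beside the 10. Of 20 other genes of the inner membrane, of KASH proteins and of their partners 13 were tested. The list includes the HP1 genes CBX1, CBX3 and CBX5, whose products are chromatin proteins and not membrane proteins, and the KASH genes SYNE1 and SYNE2, the large nesprins, reached at most 0.0497 and 0.0103 FPKM in any library. With VCR 3 fell and none rose in NC cells (36.2% of all genes passed). These were the inner membrane genes NRM (nurim) at -1.80 and NEMP1 at -1.36, and CBX5 (HP1 alpha, a partner of LBR) at -1.55. NRM and CBX5 fell in PTPN21 cells too, at -1.78 and -1.89, and ANKLE2, a regulator of BANF1, rose by 0.89. In mean FPKM, CBX5 was at 30.8 ± 13.8 (SD, n = 3) in NC+DMSO and 9.31 ± 1.48 in NC+VCR, and at 35.0 ± 4.36 in PTPN21+DMSO and 8.65 ± 0.208 in PTPN21+VCR. The list's median was -0.26 in NC cells, nearer to 0 than the median of all genes, and 0.11 in PTPN21 cells. With median ratio scaling 2 of the 13 rose and 2 fell in NC cells.

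Enzymes that process lamins or release them in mitosis moved both ways. In NC cells 1 of 11 tested rose with VCR and 3 fell, a share near the 36.2% of all genes, and with median ratio scaling 4 rose and 2 fell. ZMPSTE24, the protease that matures prelamin A, fell by 1.64 on the log2 scale (limma adjusted p = 0.00281), CTDNEP1, an envelope phosphatase, by 1.32 and the mitotic kinase CDK1 by 0.43, whereas its partner CCNB1 rose by 1.21. In PTPN21 cells 2 rose and 2 fell, beside 28.5% of all genes, namely LPIN1, a phosphatidate phosphatase, at 1.20, CCNB1 at 1.03, CTDNEP1 at -0.98 and VRK1, a kinase of BANF1, at -0.97. ZMPSTE24 was already lower with PTPN21 in DMSO, by 1.46 (limma adjusted p = 0.0300), together with LPIN1 at -0.96, while VRK1 rose by 0.88.

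Of 12 genes that reseal the envelope, 3 rose and 5 fell with VCR in NC cells, beside 36.2% of all genes. CHMP6 was at -1.51, CHMP7, a partner of the LEM domain protein LEMD2, at -0.85, CHMP4B at 0.88 and CHMP4A at 0.79. With median ratio scaling 4 rose and 1 fell. In PTPN21 cells CHMP4B at 0.61 and CHMP3 at 0.60 rose and CHMP2A fell by 0.51, a share near the 28.5% of all genes. Of 32 nuclear pore genes, 16 fell and 2 rose with VCR in NC cells with a median of -0.61, led by SEH1L at -1.30, NUP62 at -1.26, POM121 at -1.11 and AAAS at -1.09. In PTPN21 cells 3 rose and 3 fell, or 18.8% beside the 28.5% of all genes, with a median of -0.02. They were led by NUP107 at 1.30, NUP54 at -0.72, NUP188 at -0.65 and TPR at 0.62. The difference between NC and PTPN21 cells passed for none of the 32 pore genes (limma interaction). An unadjusted p under 0.05 was found for 7 of them, beside 1624 of the 11591 tested genes. With median ratio scaling the pore counts were 5 lower and 4 higher in NC cells and 1 lower and 5 higher, with a median of 0.15, in PTPN21 cells. In NC cells they were, without the third NC+DMSO library, 11 lower and 2 higher.

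With PTPN21 in DMSO 6 pore genes fell and none rose (6.34% of all genes passed), and 2 fell with median ratio scaling. In the other lists CBX1 (HP1 beta, a chromatin protein that binds LBR) fell by 1.08, and CHMP2A rose by 0.80. Without the third NC+DMSO library no gene of the 5 lists passed in this comparison. Over all 11591 tested genes 136 passed without that library, against 735 with it. Apart from genes of dividing cells, given below, CBX1 was also the only list gene past the threshold between PTPN21+VCR and NC+VCR. It was at -1.09 (limma adjusted p = 0.0250).

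Genes of dividing cells moved with VCR as well. Of 20, 12 fell and 3 rose in NC cells, beside 36.2% of all genes, with MCM5 at -1.21 and MCM2 at -0.97 among the replication genes and PLK1 at 1.23 and CCNB1 at 1.21 among the mitotic genes. With median ratio scaling 3 fell and 5 rose. In PTPN21 cells 8 fell and 4 rose, beside 28.5% of all genes, with AURKA at 1.51, MCM5 at -1.15, PLK1 at 1.09 and CCNB1 at 1.03. In the comparison of PTPN21+DMSO with NC+DMSO 2 of the 20 fell, beside 6.34% of all genes. These were AURKA by 1.03 and MCM2 by 0.68, and with median ratio scaling 1 fell. Between PTPN21+VCR and NC+VCR 2 fell, beside 1.82% of all genes, MCM4 by 0.92 and TOP2A by 0.46. There too 1 fell with median ratio scaling. The part of dividing cells in the values of the lamin genes was not tested.

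**Figure D5:**
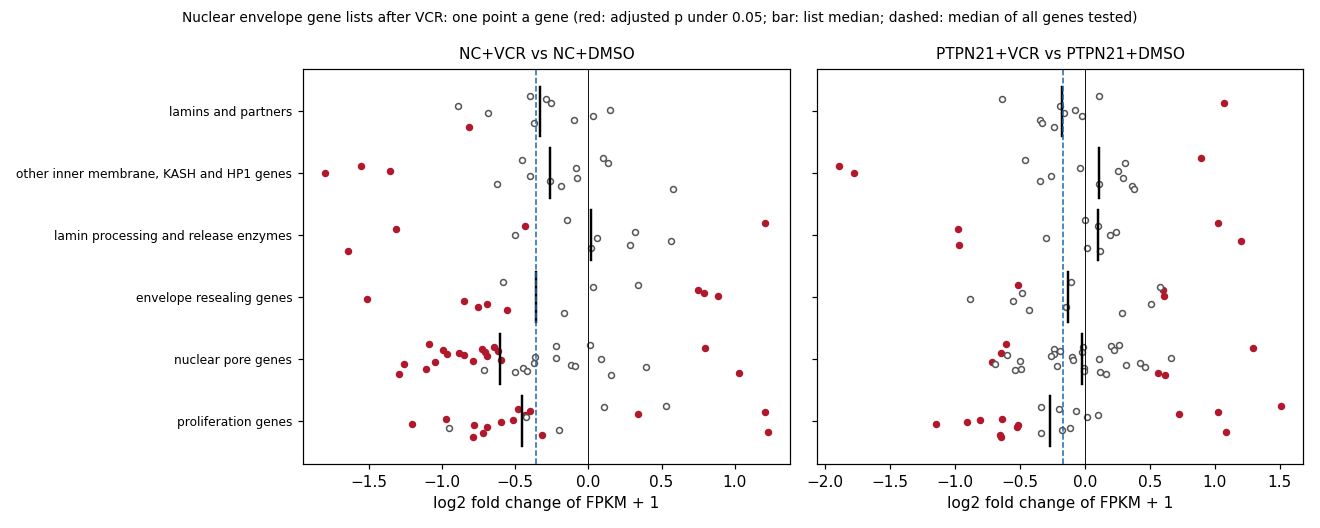
Log2 fold change (FPKM + 1) with VCR in NC cells (left) and PTPN21 cells (right) for the 10 genes and the 5 other lists, 1 point a tested gene, red where the adjusted p was under 0.05, with a bar at the list's median and a dashed line at the median of all tested genes. In NC cells 16 of 32 pore genes are red on the left side, with a list median of -0.61.

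The genes most like each lamin gene were found by the root mean square difference of log2(FPKM + 1), each centred on its own mean, over the 12 libraries. For LMNB1 these were CTCF (0.14), a chromatin insulator protein, OTUD3 (0.15) and CEP76 (0.17), and CTCF had group means of 16.2, 8.77, 10.2 and 7.10 FPKM in NC+DMSO, then PTPN21+DMSO, then NC+VCR, then PTPN21+VCR. The closest of the other 9 genes was TMPO, 175th among all tested genes, at 0.29. For LMNA they were DNTTIP1 (0.14), BABAM1 (0.15) and SPATA2L (0.16), with EMD the closest of the 9 at rank 2693. For LMNB2 they were TMOD2 (0.13), WASF2 (0.14) and OTUD7B (0.15), with LMNB1 the closest of the 9 at rank 1706. The lamin genes were thus not each other's nearest in pattern. A gene with little change and little spread is near many genes by this measure.

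GENCODE release 29 (GRCh38) places TMPO on chromosome 12 from 98515512 to 98550379, LMNB1 on chromosome 5 from 126776623 to 126837020, LMNA on chromosome 1 from 156082573 to 156140089 (all on the plus strand), LBR on chromosome 1 from 225401502 to 225428925 and LMNB2 on chromosome 19 from 2427638 to 2456996 (both on the minus strand). LMNB2 shares 257 exon bases with TIMM13 on the same strand, which was at 41.1 to 189 FPKM. The table also held 9 rows of pseudogenes and antisense or divergent transcripts named after the 10 genes. Of these 4 were listed at 0 in all 12 libraries, and the highest value among the rest was 2.61 FPKM, for TMPOP2.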

How the data were processed

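RNA of 12 libraries was sequenced after 48 h of treatment. The authors deposited FPKM values for 60671 genes, made by an outside company. The submitters' processing notes name fastp, Bowtie2 and the mouse build mm10, although the genes carry human Ensembl identifiers, so the build is unclear, and the counting program and its use of strand are not given in the sources used here. Groups came from the sample labels. The genes and lists were chosen with earlier results of these data known.

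The 11591 genes whose FPKM averaged 1 or more were analysed as log2(FPKM + 1). The 4 group means were fitted by limma 3.58.1 (R 4.3.3), with an intensity trend, no block and Benjamini-Hochberg adjustment, for 5 comparisons, and the fit was tested on simulated data. Genes named were all 10 genes, up to 4 genes of largest change past the threshold per list in each VCR comparison, and the 3 nearest genes in pattern to each lamin gene. List genes named for the comparisons of PTPN21 with NC were chosen after their values were seen. Relative depth is the commonest ratio of values under 0.2 FPKM between libraries and is approximate. Other settings were a pseudocount of 0.1, a filter at an average of 5 FPKM or none, TPM, median ratio and quantile scaling, no trend, 2 groups alone, a replicate block and each library left out. Removal of length and GC trends (99.3% of genes tested) was added after seeing the data. Promoter windows came from RefSeq and positions from GENCODE. Tables were made with pandas 2.3.3 and numpy 2.4.6 under Python 3.11.15, plots with matplotlib 3.10.9.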

Additional observations from a re-analysis of the deposited data

How the results depend on the processing

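With 3 libraries a group, calls near the threshold changed with the setting, and a p above it does not show that groups were alike. Over the 10 genes and 5 comparisons, 420 of 480 values kept their direction and their side of the threshold under the other settings. When a library was left out, 530 of 600 did. Much of this was fixed in advance, and most of these results were not called as reported. The filters, no trend, the replicate block and the fit to the compared groups alone cannot alter a fold change. Nor can leaving out a library outside the comparison. The results called as reported lost the threshold in 20 values under the other settings and in 25 when a library was left out. No cause of the changes below was tested. Depth would limit SUN2, LEMD3 and EMD most, since these had the lowest levels of the 10.

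For VCR in NC cells the number of the 10 genes called, 1 as reported, was 0 without a filter, with median ratio scaling, with quantile normalization and with the 2 groups alone, and 2 with the filter at 5 FPKM (8 genes tested), with TPM scaling and with length and GC trends removed. For VCR in PTPN21 cells, 1 as reported, it was 0 without a filter, with TPM scaling and with length and GC trends removed, and 2 with the filter at 5 FPKM. With a pseudocount of 0.1, without the intensity trend and with the 2 groups alone, the gene called there was EMD and not LBR. For PTPN21 in DMSO, 2 as reported, it was 0 without a filter and with the 2 groups alone, and 1 with a pseudocount of 0.1, with median ratio scaling, without the intensity trend, with the replicate block and with length and GC trends removed, and 3, with LBR added, with the filter at 5 FPKM and with TPM scaling. Leaving out a library gave 0 to 2, 0 to 1 and 0 to 3 calls in these comparisons, and 0 to 0 for PTPN21 in VCR and for the interaction. Same-numbered libraries did not deviate together (correlation of deviations -0.145 to 0.0583 over 18 pairs). This cannot show whether they were handled together, which the labels do not say. The block gave 1, 1, 1, 0 and 0 calls in the 5 comparisons.

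Several uncalled log2 fold changes took the other sign. With TPM scaling LMNB2 with VCR in NC cells was -0.0723, BANF1 with PTPN21 in DMSO -0.0219, LBR with PTPN21 in VCR -0.00876 and the LMNB2 interaction 0.0312. With median ratio scaling LBR, EMD and SUN1 with VCR in NC cells were 0.14, 0.0639 and 0.26, LMNA, LMNB1 and LMNB2 with VCR in PTPN21 cells 0.11, 0.0165 and 0.15, LMNA with PTPN21 in DMSO 0.10 and the SUN2 interaction -0.14. With quantile normalization EMD, SUN1 and SUN2 with VCR in NC cells were 0.0938, 0.29 and 0.0535, LMNA and LMNB2 with VCR in PTPN21 cells 0.0796 and 0.16, SUN2 with PTPN21 in DMSO 0.0153 and the SUN2 interaction -0.20. With length and GC trends removed EMD, SUN1 and SUN2 with VCR in NC cells were 0.18, 0.22 and 0.23, LMNA, LMNB1, LMNB2 and SUN2 with VCR in PTPN21 cells 0.47, 0.0189, 0.47 and 0.16, LMNA, BANF1 and SUN2 with PTPN21 in DMSO 0.0180, -0.0380 and 0.0387, and the SUN2 interaction -0.0663.

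When a library was left out, LMNB2, BANF1 and SUN1 with VCR in NC cells ranged from -0.28 to 0.35, -0.95 to 0.12 and -0.31 to 0.0429. With VCR in PTPN21 cells LMNA ranged from -0.16 to 0.0243, LMNB1 from -0.33 to 0.0186, LMNB2 from -0.13 to 0.0766, LEMD3 from -0.41 to 0.10, BANF1 from -0.17 to 0.57 and SUN2 from -0.53 to 0.0173. With PTPN21 in DMSO LMNA ranged from -0.22 to 0.0925, BANF1 from -0.43 to 0.46 and SUN2 from -0.33 to 0.0876. With PTPN21 in VCR SUN1 ranged from -0.0470 to 0.32, LEMD3 from -0.64 to 0.0745, SUN2 from -0.33 to 0.21 and LBR from -0.0187 to 0.14. The interactions of LMNB2, SUN2 and BANF1 ranged from -0.37 to 0.26, -0.22 to 0.39 and -0.0135 to 1.06.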
